A study of Homo sapiens with 12 samples.

Results

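The loci described here are those of 9 regulators and marker genes of the foregut and its derivatives: PDX1, NKX6-1, NEUROG3, ISL1, CDX2, SHH, NKX2-1, SFTPC and SCGB1A1. Each locus was taken as the gene body plus 50 kb on each side on GRCh38 (hg38). Open chromatin sites were the regions formed by merging all peaks and entries of 9 peak lists that shared at least 1 bp, and a site was counted if it overlapped a window. By this rule 132 of 399183 regions of the genome were sites of the 9 loci. The windows of PDX1 and CDX2, neighbours on chromosome 13, shared 4 of them. A median of 17 sites lay in a window, against 18 over the windows of 19974 protein-coding genes.

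The study measured chromatin accessibility by ATAC-seq, in which Tn5 transposase inserts adapters into open DNA, in the human osteosarcoma line U2OS. The 12 samples fell into 6 groups of 2. In what is called the FOXA2 set here, each sample had its own peak list: cells labelled wild type, cells with Tet-on FOXA2 (full length) and cells with Tet-on FOXA2dCTD, which lacks the C-terminal domain (CTD). In the SOX2 set there was 1 list per group: a wild type of the SOX2 cell line, Tet-on SOX2, and Tet-on SOX2FOXA2CTD, a fusion of SOX2 with the CTD of FOXA2. Construct cells received 500 ng/ml doxycycline for 4 days, and the constructs carried a Flag tag and were driven by the doxycycline-inducible promoter, so that their level is not the natural one. The genotype and treatment fields of both wild types are empty while their protocol text names doxycycline, so whether they received it is not known. Whether each line was 1 clone or a pool is not stated, and the labels call the replicates biological without saying whether the cultures were independent.

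FOXA2 is a forkhead pioneer factor of the definitive endoderm, the tissue that forms the gut tube, pancreas and lung, and SOX2 marks the anterior foregut. PDX1 specifies the pancreas and duodenum, NKX6-1 marks pancreatic progenitors and beta cells, NEUROG3 starts the endocrine programme, and ISL1 acts in endocrine cells and motor neurons. CDX2 sets intestinal identity behind the stomach, SHH is the hedgehog ligand of the gut epithelium, NKX2-1 specifies lung and thyroid, SFTPC encodes a surfactant protein of alveolar type II cells, and SCGB1A1 encodes the club cell secretory protein.

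A peak list shows where a peak caller found signal above the background of that library, and not how much of the gene was expressed. A site counted as called where a list had a peak on it, sharing 1 bp or more. In the SOX2 set the entry also had to pass a global IDR (irreproducible discovery rate, a measure of agreement between the paired inputs) of at most 0.05. The rank of a site is its place in its whole list by the authors' −log10 p, rank 1 being the strongest. Weak peaks often tie, and then the best rank of the tie is given. As lists differ in length, the highest-placed single-list site of a locus is the one that is stronger than the largest share of its own list. The lists of the SOX2 set include the entries that failed. They reach down to −log10 p of 1.65, 1.78 and 1.70 in wild type, SOX2 and fusion, while passing entries start at 6.15, 6.14 and 5.53. Places in the SOX2 set therefore run higher than among passing entries alone and are not comparable with those of the FOXA2 set. The lists differed in length: 19862 and 25088 peaks in the labelled wild types, 161136 and 57946 with full-length FOXA2, 78820 and 146854 with the CTD deletion, and 110813, 147763 and 177650 entries in the SOX2-set wild type, SOX2 and fusion, of which 48142, 65628 and 75544 passed. Read depth is unknown.

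The following properties of the lists bear on every result below. Both libraries labelled wild type in the FOXA2 set had a peak over the FOXA2 gene at chr20:22581848-22582527 and chr20:22581827-22582860, ranks 6506 and 472, where all 4 FOXA2 construct lists and the fusion list also had one. The SOX2-set wild type had none there, only a peak at chr20:22583822-22585189. Whether the libraries labelled wild type came from parental cells is therefore in doubt, and a site gained with a FOXA2 construct is one gained over libraries so labelled. Counts against the SOX2-set wild type are given beside the main ones. Over the SOX2 gene, that wild type had a called peak (chr3:181712617-181713356) within the peaks of SOX2 and the fusion. Labelled wild type replicate 1 had one there too, as had full-length replicate 1 and CTD deletion replicate 1. Whether the SOX2-set wild type came from parental cells was not tested either. The FOXA2-set lists also differed in kind. Those of replicate 2 of the labelled wild type and of full-length FOXA2 held no mitochondrial peak and started at −log10 p of 5.43 and 5.22. Those of the other 4 libraries held 2 each. They reached down to 3.44 in labelled wild type replicate 1 and to 2.01 in the construct libraries, so these 4 were not cut alike either. No label names a processing batch, and whether these kinds are batches is not known. As a check of the labelled cell, 6 mesenchymal and bone genes and 4 epithelial and foregut genes had a start site to look at. SPARC was called there in 9 of 9 lists, RUNX2 and FN1 in 7, VIM in 6, CDH2 in 3 and ALPL in none. Of the epithelial and foregut genes, FOXA1 was called at its start site in 9 of 9 lists KRT8 and CLDN4 in 2 and HNF4A in 1.

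The proximal sequences of 4 of the loci are shown because they span the contrast the lists gave at the start sites: NKX6-1 and CDX2 lay under called peaks in several lists, ISL1 and SHH in none. Each line gives the 250 bases before the annotated start site on the gene's strand (RefSeq, GRCh38.p14). Capitals mark a match to the forkhead letters TGTTTAC on either strand.
NKX6-1 (chr4:84499293-84499542, minus strand): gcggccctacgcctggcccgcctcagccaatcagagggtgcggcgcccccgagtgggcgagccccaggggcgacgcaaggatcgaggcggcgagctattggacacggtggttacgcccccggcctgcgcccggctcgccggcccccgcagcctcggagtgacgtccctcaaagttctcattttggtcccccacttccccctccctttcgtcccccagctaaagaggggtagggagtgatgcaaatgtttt
CDX2 (chr13:27969316-27969565, minus strand): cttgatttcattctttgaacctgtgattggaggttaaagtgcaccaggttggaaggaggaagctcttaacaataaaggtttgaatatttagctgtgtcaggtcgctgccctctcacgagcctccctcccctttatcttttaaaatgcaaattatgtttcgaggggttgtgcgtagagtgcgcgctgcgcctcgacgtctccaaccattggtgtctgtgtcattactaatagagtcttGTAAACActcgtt
ISL1 (chr5:51383198-51383447, plus strand): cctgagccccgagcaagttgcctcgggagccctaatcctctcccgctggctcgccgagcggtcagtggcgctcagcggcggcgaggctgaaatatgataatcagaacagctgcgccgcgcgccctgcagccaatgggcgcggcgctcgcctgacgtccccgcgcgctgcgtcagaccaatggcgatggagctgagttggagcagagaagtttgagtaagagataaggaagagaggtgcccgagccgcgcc
SHH (chr7:155812464-155812713, minus strand): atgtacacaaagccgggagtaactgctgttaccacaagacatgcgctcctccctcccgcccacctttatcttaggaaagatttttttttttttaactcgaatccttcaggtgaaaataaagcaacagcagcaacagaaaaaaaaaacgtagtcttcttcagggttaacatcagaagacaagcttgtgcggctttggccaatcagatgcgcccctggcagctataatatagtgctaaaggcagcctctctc
NKX2-1, 29 bases before its inner start site (chr14:36519669-36519697, minus strand): aaacttaaaggTGTTTACcttgtcatcag

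Short sets of letters were searched on both strands of 300-base promoters (250 before to 50 after the start): forkhead TGTTTAC and TATTTAC, and SOX AACAATG and AACAAAG. The promoters of 6 loci were searched, with 2 start sites for NKX2-1. TGTTTAC was found in CDX2, beginning 13 bases before the start on the opposite strand, and at the inner start site of NKX2-1, beginning 130 bases before it. The other 3 sets of letters were in none of them. Over 34961 promoters, 3.42% held TGTTTAC, 2.67% TATTTAC, 3.31% AACAATG and 5.19% AACAAAG. The 300-base promoters held 24 CpG dinucleotides at NKX6-1, 16 at CDX2, 36 at ISL1, 7 at SHH and 31 at NEUROG3, against a median of 14. CpG-rich promoters were called more often in every list: of those with more than the median of 14 CpGs, from 39.4% to 70.9% were called, depending on the list, and of those with under 5, from 1.39% to 6.89%. The ISL1 promoter, with more CpGs than 87.3% of promoters, was called in no list.

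**Figure D1:**
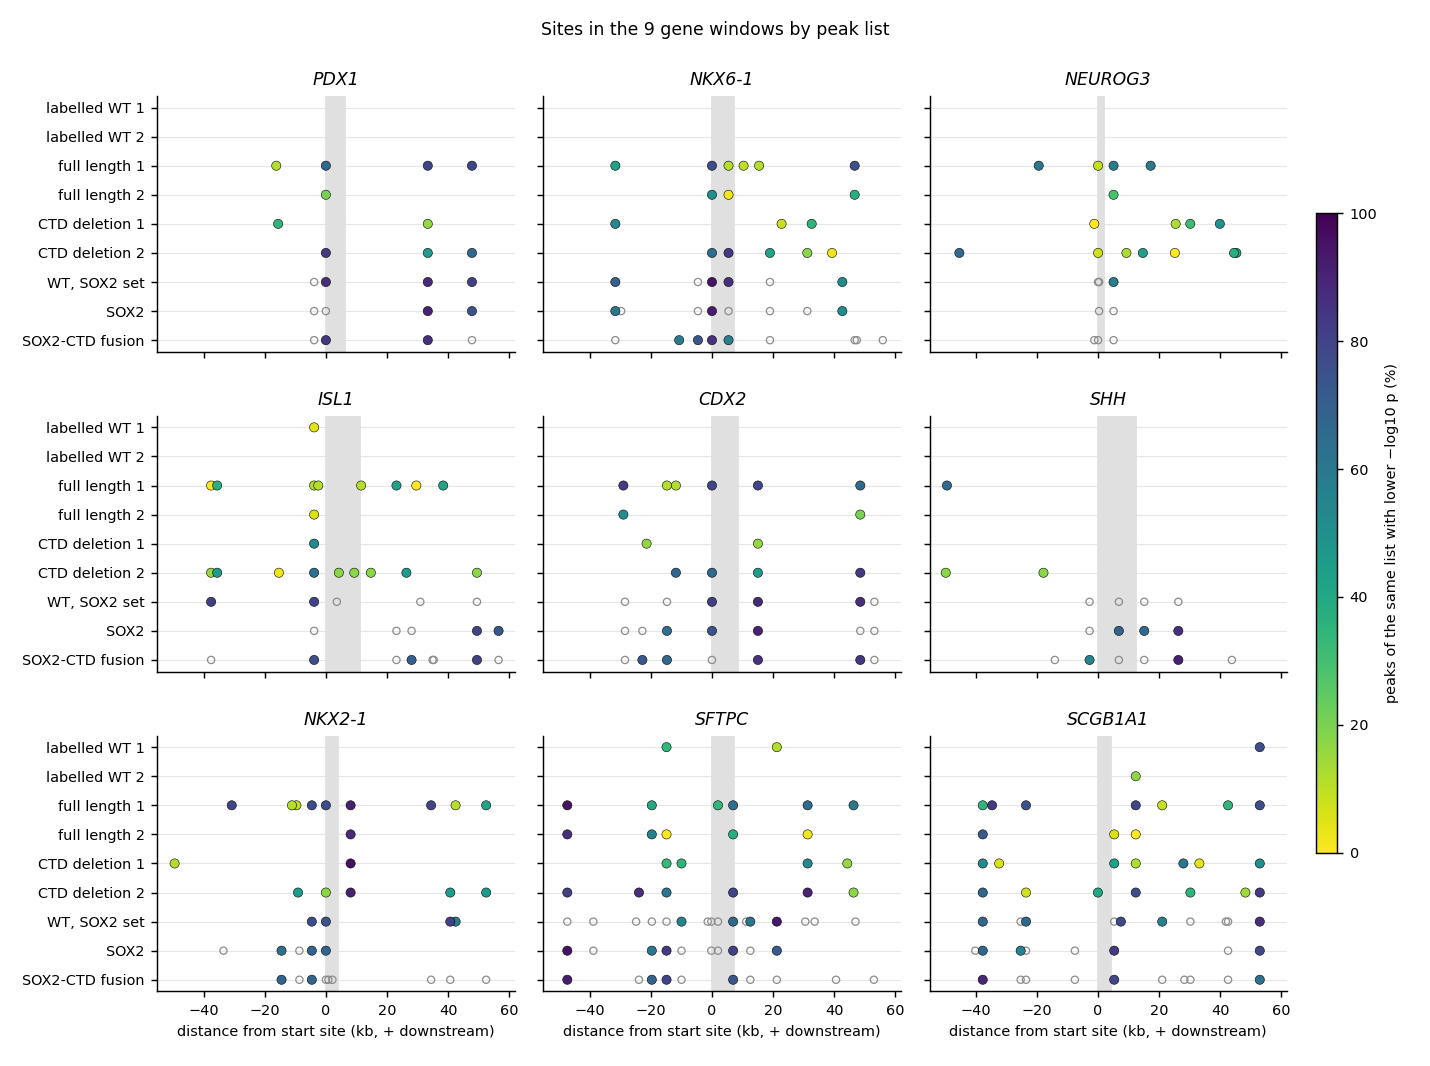
Sites in the 9 gene windows. The x axis is the distance from the gene's start site in kb (positive downstream) and each row is a peak list. Filled points are called sites, coloured by the percentage of peaks of the same list with a lower −log10 p, hollow points are entries that failed the IDR threshold, and the grey band is the gene body. The labelled wild types (WT) held 4 and 1 of the 132 sites and full-length replicate 1 held 48.

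Most sites of the 9 loci were called in few lists, as were most regions of the genome. Of the 132 sites, 30 rested on failing entries alone (22.7%, against 22.9% of all regions), 63 were called in 1 list (47.7%, against 46.9%) and 39 in 2 or more (29.5%, against 30.3%). None was called in all 9 lists, as 1.62% of all regions were. The 30 failing-only sites were spread over all loci, from 1 at PDX1 and 1 at NEUROG3 to 10 at SFTPC. Of the single-list sites, 21 were in CTD deletion replicate 2, 18 in full-length replicate 1, 13 in CTD deletion replicate 1, 5 in the fusion, 4 in SOX2 and 2 in the SOX2-set wild type. Only 5 sites overlapped the start site of their gene, and 10 more lay in a gene body of the 9. Another gene alone was overlapped by 70, which include the CDX2 start site, counted there from the PDX1 window. Called sites numbered 4 and 1 in the labelled wild types (3.03% and 0.758% of the sites, against 4.79% and 6.04% of all regions), 48 and 16 with full-length FOXA2 (36.4% and 12.1%, against 38.7% and 14.0%), 24 and 45 with the CTD deletion (18.2% and 34.1%, against 19% and 35.0%). In the SOX2 set 23 were called in wild type (17.4%, against 12%), 23 with SOX2 (17.4%, against 16.3%) and 22 with the fusion (16.7%, against 18.8%). The peaks were mostly weak. In each list the median called site was stronger than 17.0% to 46.7% of that list's called peaks, where 50% would be the middle of the list. The strongest 10% of a list held 2 of the sites in full-length replicate 1, 1 and 2 in the CTD deletion replicates, 1 in SOX2 and none in the other 5 lists.

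PDX1 had an open start site with full-length FOXA2. The site (chr13:27919706-27920767) had rank 45174 and fold enrichment 3.87 over the library's background in full-length replicate 1, and rank 41180 and fold 5.45 in replicate 2. It had rank 24804 in CTD deletion replicate 2, and no peak in CTD deletion replicate 1 or either labelled wild type. It therefore counted as gained with full-length FOXA2, meaning that both construct libraries and neither labelled wild type had a peak. The same site was called in the SOX2-set wild type at rank 14128, above 87.2% of a list that includes failing entries. The full-length peaks were above 66.8% and 20.4% of lists without such entries, so these places are not comparable. It was called in the fusion at rank 27740, and in SOX2 it had an entry at rank 112047 that failed at an IDR of 0.345, with inputs of −log10 p 17.2 and 3.80. One of the SOX2 inputs thus carried a signal like that of the wild type and the other did not.

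Between PDX1 and CDX2, in the noncoding gene LINC00543, lay the site chr13:27953361-27954276. It is 33.4 kb downstream of the PDX1 start and 15.04 kb downstream of the CDX2 start. It had rank 29816 in full-length replicate 1, rank 62783 in CTD deletion replicate 1 and rank 62426 in CTD deletion replicate 2, and counted as gained with CTD-deleted FOXA2, that is, by the same rule with the CTD deletion libraries. The peak in CTD deletion replicate 1, at −log10 p of 3.38, was below the lowest of either labelled wild-type list (3.44 and 5.43). In the SOX2 set the site was called in all 3 lists, at rank 13101 in wild type, rank 14218 with SOX2 and rank 24380 with the fusion. Among the sites this window shares with CDX2 is the CDX2 start site itself, called in 4 lists and described with that gene. The remaining 3 PDX1 sites were called once each or not at all. The highest-placed single-list site was 15.6 kb upstream (chr13:27904155-27904376, CTD deletion replicate 1, rank 46970).

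NKX6-1 had 3 of the 12 sites gained with full-length FOXA2, including its start site. At the start site (chr4:84498787-84500009) full-length replicate 1 had rank 37746 and fold 4.09, replicate 2 rank 25257 and fold 6.82, and CTD deletion replicate 2 rank 51761. No labelled wild type and not CTD deletion replicate 1 had a peak there. All 3 lists of the SOX2 set did, at rank 5363 in wild type, 10519 with SOX2 and 25186 with the fusion. The wild-type entry was stronger than 95.2% of its list, the highest place of any start site of the 9 genes. This promoter was thus also called in cells without a FOXA2 construct.

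The second NKX6-1 site lay in the gene body (chr4:84492614-84493877), 5.42 kb after the start. It was among the weakest of its lists with full-length FOXA2, rank 108084 in replicate 1 and 54505 of 57946 in replicate 2. The replicate 1 peak, at −log10 p of 2.83, was below the lowest of either labelled wild-type list (3.44 and 5.43). In CTD deletion replicate 2 the site had rank 22901, and in the SOX2-set wild type rank 15178 and in the fusion rank 76693. The SOX2 entry, rank 63381, failed at an IDR of 0.0876, close to the threshold. Another NKX6-1 site, 46.7 kb downstream (chr4:84451944-84452578), was not in any wild-type list. It had rank 39168 in full-length replicate 1 (chr4:84451944-84452143) and 32169 in replicate 2 (chr4:84452174-84452578). These peaks shared no base and were joined into a site by a failing fusion entry (chr4:84452080-84452287). No CTD deletion list had a peak there.

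Other NKX6-1 sites separated the lists of the SOX2 set. A site 31.6 kb upstream in LOC102723338 (chr4:84530927-84531388) was called in full-length replicate 1 (rank 69496), CTD deletion replicate 1 (rank 33368), the SOX2-set wild type (rank 33233) and SOX2 (rank 57032), and its fusion entry failed. A site 42.7 kb downstream (chr4:84455785-84456618) was called in that wild type (rank 50527) and SOX2 (rank 69254), with no fusion entry. With the fusion 2 sites were gained, that is, called with the construct and not in the SOX2-set wild type. They lay 4.59 kb upstream (chr4:84503881-84504393, rank 46400) and 10.7 kb upstream (chr4:84510034-84510461, rank 70900). The nearer one had failing entries in wild type (IDR 0.0599) and SOX2 (IDR 0.0853), so that all 3 groups had some signal there.

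NEUROG3 was the most scattered locus: 12 of its 15 sites were called in 1 list, 6 of them in CTD deletion replicate 2. Its start site (chr10:69573197-69573975) had weak peaks in full-length replicate 1 (rank 146730) and CTD deletion replicate 2 (rank 135999). The SOX2-set wild type and fusion had failing entries there. One site, 5.07 kb after the start and outside the gene (chr10:69567779-69568353), was gained with full-length FOXA2, at rank 67688 in replicate 1 and 36396 in replicate 2. It was also called in the SOX2-set wild type at rank 46332, with failing entries in SOX2 (IDR 0.0698) and the fusion (IDR 0.189). The highest-placed single-list site was 45.4 kb upstream (chr10:69618830-69619125, CTD deletion replicate 2, rank 49302). No SOX2 or fusion list called a site in this window.

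ISL1 had 20 sites and none gained with either FOXA2 construct. Its most shared site (chr5:51378366-51379599) lay 3.85 kb upstream of the start in the divergent noncoding gene ISL1-DT and was called in 7 lists. It had rank 18990 of 19862 in labelled wild type replicate 1, 108084 and 50774 with full-length FOXA2, and 33368 and 55094 with the CTD deletion. The SOX2-set wild type had rank 22029 and the fusion rank 41944, and the SOX2 entry failed at an IDR of 0.342 with inputs of −log10 p 14.1 and 3.86. As at the PDX1 start site, the SOX2 inputs disagreed.

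Farther from ISL1, a site 49.5 kb downstream (chr5:51432906-51433974) was gained with both SOX2 (rank 29798) and the fusion (rank 34524). It also had a weak peak in CTD deletion replicate 2 (rank 98055), and its wild-type entry failed with inputs of −log10 p 4.07 and 10.9. A site 56.5 kb downstream (chr5:51439970-51440462, rank 39327) was gained with SOX2. With failing entries included in its list, it was the highest-placed single-list site of the locus. A further one, 28.1 kb downstream (chr5:51411500-51412454, rank 52106), was gained with the fusion. In the other direction, a site 37.6 kb upstream (chr5:51344928-51345878) was called in the SOX2-set wild type (rank 20437), full-length replicate 1 (rank 160569, among the last of that list) and CTD deletion replicate 2 (rank 121784). It was not called with SOX2 or the fusion. A site 35.6 kb upstream (chr5:51347418-51347868) had peaks in full-length replicate 1 (rank 101549) and CTD deletion replicate 2 (rank 62426) alone.

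CDX2 was called at its start site in 4 lists. The site (chr13:27967824-27969634) covers the TGTTTAC match printed above. It had rank 29816 in full-length replicate 1 and rank 48062 in CTD deletion replicate 2, and no peak in the other FOXA2 construct libraries or the labelled wild types. It had rank 20482 in the SOX2-set wild type and 37377 with SOX2. The fusion entry, rank 85168, failed at an IDR of 0.0903. The start site was therefore not gained with any construct.

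Upstream of CDX2 lay sites gained with different constructs, some with weak or failing signal in other lists. The site 29.0 kb upstream (chr13:27998320-27999450) had peaks in both full-length libraries, rank 27786 and fold 4.46 in replicate 1 and rank 25257 and fold 6.82 in replicate 2, and no peak or entry in any other list. It was 1 of 3 sites gained with full-length FOXA2 that had no entry at all in the SOX2 set. Just outside it, toward the gene, all 3 lists of that set had entries, which failed the IDR threshold. The site 14.7 kb upstream, in URAD (chr13:27984052-27984713), was gained with SOX2 (rank 51764) and the fusion (rank 58336), had a weak peak in full-length replicate 1 (rank 108084) and a failing wild-type entry. The site 22.8 kb upstream (chr13:27992096-27992822, rank 48178) was gained with the fusion alone, and its SOX2 entry failed at an IDR of 0.524. A site 11.8 kb upstream (chr13:27981124-27981506) had peaks in full-length replicate 1 (rank 108084) and CTD deletion replicate 2 (rank 40964).

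SHH had few peaks in the FOXA2 set. Its 9 sites drew 1 peak from full-length replicate 1, 2 from CTD deletion replicate 2, and none from the other 4 libraries. The SOX2-set wild type called none of them, but had failing entries at every site gained with SOX2 or the fusion. No site was gained with either FOXA2 construct. SOX2 gained 3 and the fusion 2. The strongest, 26.3 kb after the start and outside the gene (chr7:155785361-155786195), was shared: rank 19603 with SOX2, with inputs of −log10 p 28.9 and 16.4, and rank 15562 with the fusion, with inputs of 14.98 and 17.8. The wild-type inputs there were 5.87 and 4.34, and that entry failed at an IDR of 0.249.

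The other SHH sites were weaker. One in the gene body, 6.80 kb after the start (chr7:155804681-155805662, rank 45143), and one 15.1 kb after it (chr7:155796825-155797357, rank 49878) were gained with SOX2. Both had failing fusion entries, and the wild-type entry at the first failed at an IDR of 0.0681. A site 2.79 kb upstream of the start (chr7:155815254-155815752, rank 76962) passed in the fusion at an IDR of 0.0496, just inside the threshold. With failing entries included in its list, the site in the gene body was the highest-placed single-list site.

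NKX2-1 held the site with the most even calls across the FOXA2 constructs. It lay 8.10 kb after the NKX2-1 start, beyond the gene and in the neighbouring gene SFTA3 (chr14:36511395-36512134). It had rank 12995 and fold 5.52 in full-length replicate 1, rank 6212 and fold 10.9 in replicate 2, rank 2997 and fold 7.38 in CTD deletion replicate 1, and rank 13030 and fold 5.85 in replicate 2. These places were above 91.5%, 88.0%, 96.2% and 90.8% of the 4 lists. Neither labelled wild type had a peak, and no list of the SOX2 set, its wild type included, had an entry at any IDR. It was the only site of the 9 loci gained with both FOXA2 constructs at equal numbers of peaks (the strongest 19862 of each list), and it stayed gained at a common −log10 p threshold of 5.43, when 50% or more of the region had to be covered, and with the SOX2-set wild type as the control.

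The NKX2-1 start site (chr14:36519719-36521009) had rank 37311 in full-length replicate 1 and 98055 in CTD deletion replicate 2, rank 29301 in the SOX2-set wild type and rank 47804 with SOX2. Its fusion entry failed at an IDR of 0.330, with inputs of −log10 p 9.39 and 3.08. A site 4.60 kb upstream (chr14:36524833-36525951) was called in full-length replicate 1 (rank 35537), the SOX2-set wild type (rank 25679), SOX2 (rank 46949) and the fusion (rank 57290). Both therefore belonged to chromatin that was also open in a wild type.

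Farther upstream, 14.5 kb from the start (chr14:36534747-36535588), a site was gained with SOX2 (rank 51764) and the fusion (rank 55459) with no wild-type entry. Downstream in SFTA3, sites at 40.7 kb (chr14:36478690-36479513) and 42.5 kb (chr14:36477339-36477770) were called in the SOX2-set wild type, at ranks 21416 and 46322, and not with SOX2 or the fusion. The first also had a peak in CTD deletion replicate 2 (rank 62426) and the second in full-length replicate 1 (rank 108084). A site 52.5 kb downstream (chr14:36467276-36467767) was in full-length replicate 1 (rank 69496) and CTD deletion replicate 2 (rank 62426). The highest place among single-list sites was a tie in full-length replicate 1, at rank 29816, between sites 34.4 kb downstream (chr14:36485287-36485790) and 30.8 kb upstream (chr14:36551047-36551467).

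SFTPC had 4 of the 12 sites gained with full-length FOXA2, the most of any of the 9 genes, and its own start site was called in no list. This window is gene-dense and also holds NUDT18, REEP4, LGI3 and BMP1. The strongest site lay 47.4 kb upstream in NUDT18 (chr8:22108697-22110027). It had rank 7056 and fold 5.83 in full-length replicate 1, rank 6979 and fold 10.6 in replicate 2, and rank 26626 and fold 4.55 in CTD deletion replicate 2. It was also gained with SOX2 (rank 6240) and the fusion (rank 12790). The wild-type entry of the SOX2 set failed at an IDR of 0.345, with unequal inputs of −log10 p 5.08 and 30.9, and the higher of these was as large as the SOX2 inputs of 27.9 and 31.3.

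A second site, 19.7 kb upstream (chr8:22137172-22137692), was gained with full-length FOXA2 (ranks 97123 and 22441), SOX2 (rank 58505) and the fusion (rank 55755), with a failing wild-type entry. The third overlapped SFTPC and BMP1, 6.92 kb after the start (chr8:22164305-22166064), at ranks 57223 and 32169 with full-length FOXA2 and 30940 in CTD deletion replicate 2. It was called in all 3 lists of the SOX2 set, at ranks 37395, 27843 and 46500 in wild type, SOX2 and fusion. The fourth, 31.3 kb downstream in BMP1 (chr8:22188685-22189409), was gained with both FOXA2 constructs. It had ranks 55461 and 54505 with full-length FOXA2 and 33368 and 13829 with the CTD deletion, and no entry in the SOX2 set. The full-length replicate 2 peak was among the last of its list, stronger than 1.88% of it.

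Of the remaining SFTPC sites, one 14.9 kb upstream in REEP4 (chr8:22140731-22142505) was called in 6 lists. It was gained with SOX2 (rank 24935) and the fusion (rank 34709), but labelled wild type replicate 1 had one as well (rank 13019), as had full-length replicate 2 (rank 57804) and both CTD deletion replicates (ranks 52405 and 57383). Its SOX2-set wild-type inputs were −log10 p 4.22 and 15.7. A site 21.2 kb downstream in BMP1 (chr8:22178608-22179457) was strong in the SOX2-set wild type (rank 6819), weaker with SOX2 (rank 41143) and failed with the fusion, and labelled wild type replicate 1 had it too (rank 17515). Sites 9.97 kb upstream in LGI3 (chr8:22146834-22147410, rank 49586 in that wild type and 46970 in CTD deletion replicate 1) and 12.6 kb downstream (chr8:22169938-22170386, rank 42891 in that wild type) had only failing entries with SOX2 and the fusion. A site 46.3 kb downstream (chr8:22203723-22204072) was in full-length replicate 1 (rank 63295) and CTD deletion replicate 2 (rank 98055). The highest-placed single-list site was 23.9 kb upstream (chr8:22133101-22133482, CTD deletion replicate 2, rank 18871).

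SCGB1A1 had 1 site gained with both FOXA2 constructs, 37.7 kb upstream in ASRGL1 (chr11:62380576-62381288). It had ranks 104498 and 13964 with full-length FOXA2 (fold 2.89 and 8.52) and 37714 and 47642 with the CTD deletion (fold 3.73 and 4.00). The full-length replicate 1 peak had −log10 p of 3.17. The labelled wild-type lists start at 3.44 and 5.43, so a peak as weak could not appear in them. All 3 lists of the SOX2 set called the site too, at rank 36233 in wild type, 48580 with SOX2 and 18940 with the fusion. It was called in the SOX2-set wild type and in neither labelled wild type.

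With that site, which was called in 7 lists, the most shared sites of the window lay 12.3 and 52.9 kb downstream. The first of these (chr11:62431361-62432050) was called in labelled wild type replicate 2 (rank 18316), both full-length replicates (ranks 35193 and 56855) and both CTD deletion replicates (ranks 69229 and 34860), and in no list of the SOX2 set. The second, in AHNAK (chr11:62471963-62473168), was called in 7 lists: labelled wild type replicate 1 (rank 4735), full-length replicate 1 (rank 38298), both CTD deletion replicates (ranks 38300 and 24249), and wild type (rank 14812), SOX2 (rank 31968) and fusion (rank 66475) of the SOX2 set. Both downstream sites were thus called in 1 library labelled wild type, and the second also in the SOX2-set wild type. The first had no entry in the SOX2-set wild type. It counted as gained with both FOXA2 constructs when that wild type was the control.

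With SOX2, sites 25.3 kb upstream (chr11:62393000-62393692, rank 64886) and 5.29 kb after the start, beyond the gene (chr11:62424318-62425227, rank 25036), were gained. The second was also gained with the fusion (rank 36789) and had peaks in full-length replicate 2 (rank 50774) and CTD deletion replicate 1 (rank 45200). Both had failing wild-type entries. Sites 23.6 kb upstream (chr11:62394614-62395441), 7.46 kb downstream (chr11:62426492-62427466) and 21.0 kb downstream (chr11:62440024-62440568) were called in the SOX2-set wild type, at ranks 37334, 24421 and 47663, and with neither SOX2 nor the fusion. The first had peaks in full-length replicate 1 (rank 40616) and CTD deletion replicate 2 (rank 135466), and the third in full-length replicate 1 (rank 147236). The highest-placed single-list site was 34.7 kb upstream (chr11:62384003-62384333, full-length replicate 1, rank 26451).

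**Figure D2:**
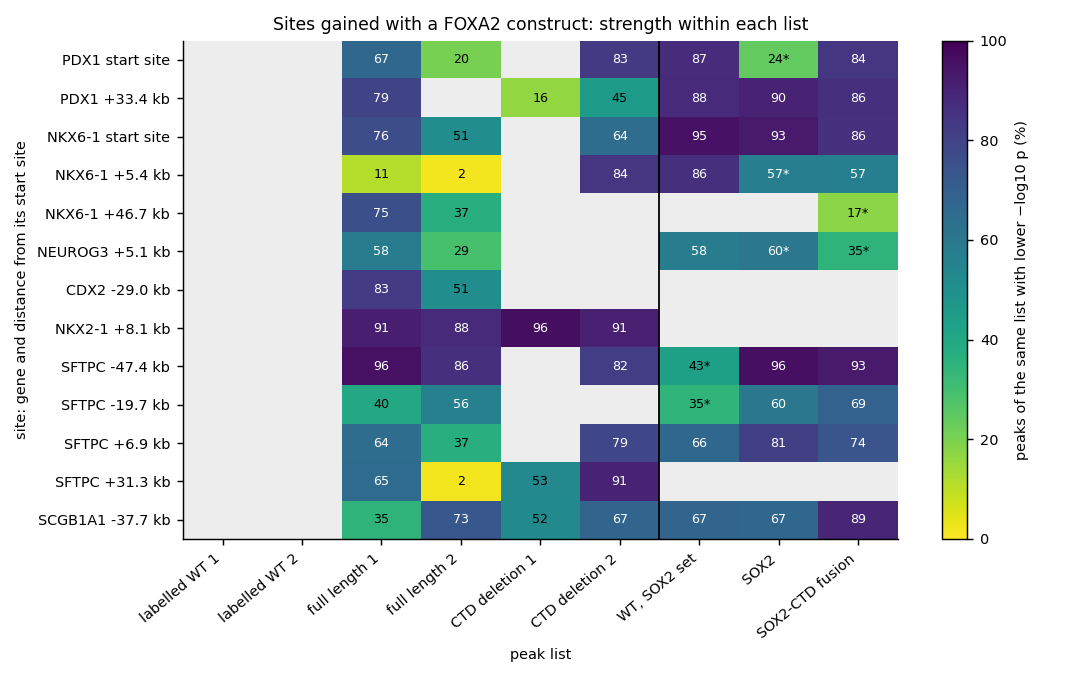
The 13 sites gained with a FOXA2 construct. Rows are sites, named by gene and distance from its start site in kb, columns are the peak lists, and each number and colour gives the percentage of peaks of the same list with a lower −log10 p. Grey is no peak or entry, * an entry that failed the IDR threshold, and the line separates the FOXA2 set from the SOX2 set. The site 8.10 kb downstream of NKX2-1 is above 88.0% of the list or higher in all 4 construct libraries and absent from the SOX2 set.

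Across the loci, 12 sites were gained with full-length FOXA2, which is 9.09% of the sites, against 6.26% of all regions by the same rule. With CTD-deleted FOXA2, 4 were gained (3.03%, against 6.21%). Gained with both were 3 (2.27%, against 3.00%): the sites in SFTA3, BMP1 and ASRGL1 within the windows of NKX2-1, SFTPC and SCGB1A1. None was lost with full-length FOXA2 (background 0.102%) or with the CTD deletion (background 0.0368%). A lost site had to be called in both labelled wild types, which called 4 and 1 sites of these loci and none in common. No loss could therefore be counted here, whatever the constructs did. No test was made of these counts, and an exact two-sided permutation test of 2 libraries against 2 cannot give a p below 0.333.

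The difference between 12 and 4 does not show that the CTD deletion opened fewer of these sites. Of the 12, the longer list of CTD deletion replicate 2 held 8, the shorter list of replicate 1 held 3, and 4 were in neither. Those 4 lay 46.7 kb downstream of NKX6-1, 5.07 kb downstream of NEUROG3, 29.0 kb upstream of CDX2 and 19.7 kb upstream of SFTPC. At the first of them the full-length peaks of the replicates shared no base. Conversely, full-length replicate 1 had peaks at all 4 sites gained with the CTD deletion, and replicate 2 at 3 of them. Without CTD deletion replicate 1 the count for the deletion was 41 (31.1% of the sites, against 28.6% of all regions), and without full-length replicate 2 the count for full length was 45 (34.1%, against 32.7%). At equal numbers of peaks the counts were 2 and 1 (1.52% and 0.758% of the sites, against 0.959% and 0.733% of all regions). In the lists with mitochondrial peaks 46 were gained with full-length FOXA2, from 1 library (34.8%, against 34.9%). With the CTD deletion 5 were (3.79%, against 8.02%). Among these lists the labelled wild type reached down to −log10 p of 3.44 and the full-length one to 2.01. In the lists without mitochondrial peaks 15 were gained with full-length FOXA2 (11.4%, against 9.16%). The part of list length in these counts was not tested beyond these settings.

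The choice of wild type also moved the counts. The SOX2-set wild type called 6 of the 12 full-length FOXA2 sites, had a failing entry at 2 and none at 4. Over the whole genome 20.7% of the regions so gained were called in that wild type and 33.0% had an entry of any IDR. With passing entries of all 3 wild-type lists as the control, 6 sites were gained with full-length FOXA2 (4.55%, against 4.96% of all regions). With the CTD deletion 2 were (1.52%, against 4.55%), both of these also gained with full length. The start sites of PDX1 and NKX6-1 were among those called in the SOX2-set wild type, so no start site of the 9 genes was gained against all 3 wild types.

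**Figure D3:**
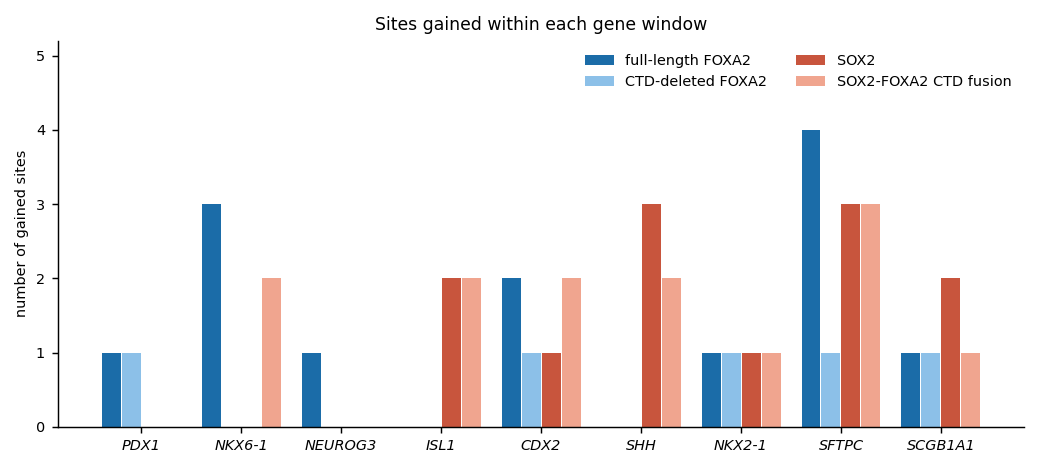
Number of sites gained within 50 kb of each gene with each construct. Bars start at 0, and a site in the windows of both PDX1 and CDX2 is counted in each. SFTPC has the most sites gained with full-length FOXA2 (4), and ISL1 and SHH have none.

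Counted by gene, 7 of the 9 had at least 1 site gained with full-length FOXA2, which is near the 73.5% of protein-coding genes with one within 50 kb. With the CTD deletion 5 of 9 had one (background 69.8%), and with both 3 of 9 (background 49.6%). PDX1 and CDX2 both counted with the CTD deletion through 1 shared site, that in LINC00543. With full-length FOXA2, PDX1 counted through its start site alone, which also lies in the CDX2 window. With SOX2 6 of 9 had one (background 75.0%) and with the fusion 7 of 9 (background 76.6%). The 9 loci did not stand out from other genes by these counts.

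Both SOX2-set constructs were set against the same wild-type list. SOX2 gained 12 (9.09% of the sites, against 8.68% of all regions) and the fusion 13 (9.85%, against 11.2%). In the windows of NKX2-1 and SFTPC the counts were 1 and 3 with either construct, and in those of ISL1 and SHH 2 and 3 with SOX2 and 2 and 2 with the fusion. PDX1 and NEUROG3 had none with either. Of the 4 gained with SOX2 alone, all 4 had a fusion entry that failed, and of the 5 gained with the fusion alone, 4 had a failing SOX2 entry. None of these 17 sites overlapped a start site of the 9 genes. Wild-type entries that failed the IDR threshold were present at 10 of the 12 SOX2 sites and 9 of the 13 fusion sites. Over the whole genome 37.2% of the regions gained with SOX2 and 27.9% of those gained with the fusion had such an entry. Only 2 and 4 were gained when any wild-type entry counted as a call (1.52% and 3.03% of the sites, against 5.45% and 8.07% of all regions). The reason for these differences was not tested.

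Sites called in the SOX2-set wild type and not with the construct numbered 12 with SOX2 (9.09%, against 4.32% of all regions) and 14 with the fusion (10.6%, against 4.37%). The construct's own entry was present and failed at 7 of the 12 and 11 of the 14. Among the 14 were the start sites of NKX2-1 and CDX2, and among the 12 that of PDX1, each with a failing entry for the construct. Only a site called in that wild type can be lost. Of the 23 called there, 52.2% were lost with SOX2 and 60.9% with the fusion, against 36.1% and 36.5% of the 47733 regions called there. With 1 list per group there is no spread between replicates, and these differences have no test.

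**Figure D4:**
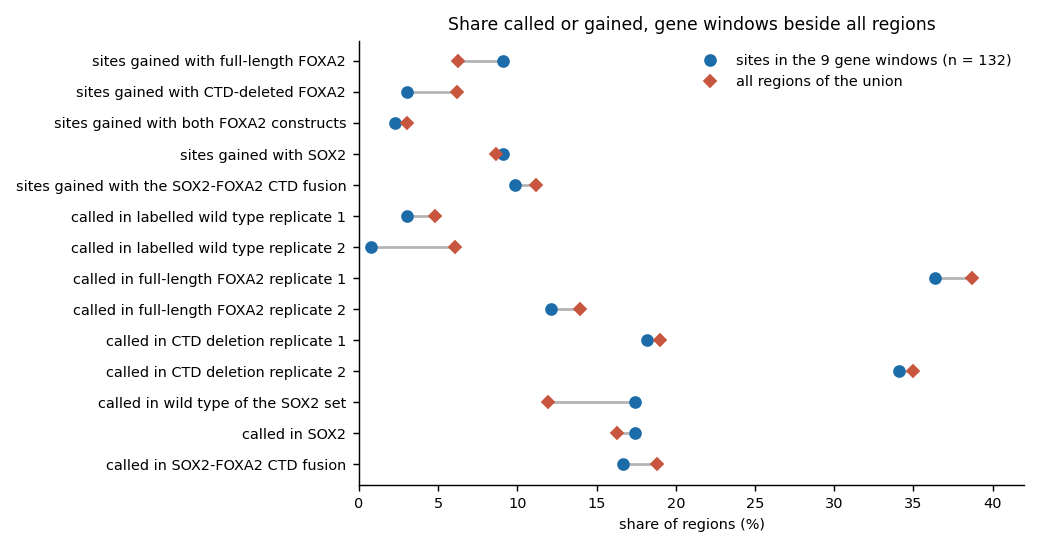
Share of sites called in each list, or gained with each construct, in percent. Circles are the 132 sites of the 9 gene windows and diamonds all 399183 regions, joined by a line. The 2 shares lie within a few percentage points of each other in most rows, with the widest gaps for labelled wild type replicate 2 and the SOX2-set wild type.

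Start sites can be compared with those of other genes. Within 1 kb of a start site, 5 of the 9 genes had a peak in full-length replicate 1 (66.2% of protein-coding genes did), 2 in replicate 2 (58.1%), none in CTD deletion replicate 1 (51.7%) and 6 in replicate 2 (66.4%). Neither labelled wild type called any (38.5% and 36.7%). In the SOX2 set 4 were called in wild type (57.6%), 3 with SOX2 (60.1%) and 2 with the fusion (55.1%). The start sites of ISL1, SHH and SFTPC were called in no list, and that of SCGB1A1 in CTD deletion replicate 2 only. Failing entries within 1 kb are not counted here, and SFTPC had them in the SOX2-set wild type and SOX2. In 8 of the 9 lists the share among the 9 genes was below that of protein-coding genes, and in CTD deletion replicate 2 the 6 of 9 were at the 66.4% of protein-coding genes.

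Other genes of the same organs gave counts of the same kind. Of 16 further pancreas genes, 9 had at least 1 site gained with full-length FOXA2, 11 with the CTD deletion, 13 with SOX2 and 14 with the fusion. Among them, NKX2-2, an endocrine factor, had 2, 2, 3 and 3 gained sites in the same order, ONECUT1 had 3, 1, 4 and 5, and MNX1, needed for the dorsal pancreas, had none with any construct. Of 12 lung and thyroid genes the counts were 11, 9, 10 and 9. SFTPB had 2, 2, 1 and 0 gained sites, SFTPD 3, 2, 2 and 3, and the ciliated cell factor FOXJ1 had 1 with each FOXA2 construct and none in the SOX2 set. SFTPA1 and SFTPA2 are adjacent and share sites.

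Of 10 foregut and gut genes, 4 had a site gained with full-length FOXA2, 7 with the CTD deletion, 8 with SOX2 and 8 with the fusion. HNF4A had 2, 2, 4 and 1, and VIL1, of the intestinal brush border, none. Of 10 further hedgehog genes the counts were 8, 8, 9 and 9, with the receptor PTCH1 at 2, 2, 4 and 3 and the inhibitor HHIP at 3, 4, 2 and 2 gained sites. The SHH locus itself had 0, 0, 3 and 2. Genes with long bodies have longer windows, so the counts of single genes are not comparable with one another. Against the backgrounds of 73.5%, 69.8%, 75.0% and 76.6% of protein-coding genes, each list can be read only as a description.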

How the data were processed

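Peaks came from 9 deposited lists, 1 for each library of the FOXA2 set and 1 for each group of the SOX2 set. That the latter were made from both samples of a group is an assumption. Per the submitters' processing notes, reads were processed with FastQC 0.10.1, Trim Galore, Bowtie2 2.4.4, SAMtools 0.1.18, MACS2 and deepTools 2.4.1 on hg38. Peak caller options, duplicate handling, any control and any shift of reads for Tn5 are not given in the sources used here. The fold enrichment is the authors' ratio over the background of a library. The −log10 p and q values are the authors' and depend on depth. In the SOX2 set the deposited −log10 p is the lower of both inputs. The deposited score restates −log10 p or q, or the IDR, and was not used. The summit offset deposited by the authors was used only for windows of 250 bp on each side of summits.

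Peaks on chromosomes 1–22 and X were merged into regions with pandas 2.3.3 and numpy 2.4.6 on Python 3.11.15. Gene bodies and promoter sequences were those of RefSeq, and 6 of the 9 genes had a promoter sequence. The genome itself was not used here, so the letters of peaks are not shown. The strands of PDX1, SFTPC and SCGB1A1 are textbook knowledge. The sites named are all those called in 2 or more lists, all gained sites and the highest-placed single-list site of each gene, and the other genes were given by list. The members and lists were chosen with earlier results of these data known. The calling rule was tested on simulated data. Alternatives were equal numbers of peaks, a common p threshold, at least 50% cover, summit windows, other controls and flanks of 20 and 100 kb. Further ones were other IDR thresholds, only lists with or only lists without mitochondrial peaks, and each library left out. No column of per-sample values was left without a sample. The kinds of list with and without mitochondrial peaks were read from the lists, not from the labels.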

Additional observations from a re-analysis of the deposited data

How the results depend on the processing

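The counts of gained sites depended on how calls were made. With equal numbers of peaks, 2 sites were gained with full-length FOXA2 (1.52% of the sites, against 0.959% of all regions). With the CTD deletion 1 was (0.758%, against 0.733%), and with both 1 (0.758%, against 0.299%). With equal numbers of entries 7 were gained with SOX2 (5.3%, against 5.49%) and 6 with the fusion (4.55%, against 6.23%). With a common p threshold the FOXA2 counts were 3, 1 and 1 (2.27%, 0.758% and 0.758%, against 3.25%, 1.65% and 0.866%). When peaks had to cover at least 50% of a region, 2 were gained with full-length FOXA2 (1.52%, against 3.27%) and 1 with both (0.758%, against 1.1%). With any entry of the SOX2-set wild type as the control, 5 were gained with full-length FOXA2 (3.79%, against 5.05%). The control of passing entries of all 3 wild-type lists was chosen after seeing the data. With it, 6 were gained with full-length FOXA2 (4.55%, against 4.96%) and 2 with the CTD deletion (1.52%, against 4.55%). Other flanks changed the number of sites, to 69 with 20 kb and 225 with 100 kb. With 20 kb the FOXA2 counts were 7, 2 and 1 (10.1%, 2.9% and 1.45%, against 6.26%, 6.21% and 3.00%). With 100 kb they were 23, 13 and 6 (10.2%, 5.78% and 2.67%, against the same shares). The 100 kb counts were 23 for SOX2 (10.2%, against 8.68%) and 22 for the fusion (9.78%, against 11.2%). In the lists with mitochondrial peaks 46 were gained with full-length FOXA2 (34.8%, against 34.9%) and 5 with both (3.79%, against 6.09%). Of the SOX2 set, 24 were gained with the fusion when all entries counted (18.2%, against 24.3%). When no wild-type entry was allowed, 2 were gained with SOX2 (1.52%, against 5.45%) and 4 with the fusion (3.03%, against 8.07%). Leaving out 1 library at a time gave from 13 to 45 with full-length FOXA2, from 5 to 41 with the CTD deletion and from 3 to 8 with both. The lowest were 9.85%, 3.79% and 2.27% of the sites, against 6.99% to 8.34%, 8.02%, and 3.34% to 3.4% of all regions. The highest were 34.1%, 31.1% and 6.06%, against 32.7%, 28.6% and 4.76%. Without labelled wild type replicate 1, 7 were gained with the CTD deletion (5.3%, against 7.23%). Without CTD deletion replicate 2 it was 20 (15.2%, against 13.2%). Without CTD deletion replicate 1, 8 were gained with both (6.06%, against 4.76%). Fewer libraries required and other list lengths change the counts by construction, and no further cause was tested. The site 8.10 kb downstream of NKX2-1 was gained with both FOXA2 constructs in every setting named for it in the results. Ranking by fold enrichment moved the 16 within-list places checked by at most 8.37 percentage points. No paired analysis was possible because the results are counts of called regions that come from no test, and each group of the SOX2 set has 1 list. Depth is unknown, so a site without a peak was not detected at an unknown depth, which does not show closed chromatin.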
